A study of Mus musculus with 4 samples.

Results

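The aminoacyl-tRNA synthetase genes are the 40 protein-coding genes, of 50686 gene identifiers counted in each library, that carry a synthetase symbol of the pattern Aars, Lars2 or Vars2, together with Eprs, Farsa, Farsb, Tarsl2, Aimp1 and Aimp2. They were chosen by name from the GENCODE M21 annotation. The rule uses no values, but it was set with earlier results of these data known. Of the 40 genes, 19 encode cytosolic enzymes, 2 (Gars and Kars) encode enzymes that serve both the cytosol and the mitochondria, 17 encode mitochondrial enzymes, and 2 (Aimp1 and Aimp2) encode scaffold proteins of the multisynthetase complex. All 40 passed the filter on low counts, and the lowest value of any of them was 195 reads.

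The study sequenced bulk RNA of mouse cells that came from spleen and lymph node and were kept in culture. Its 4 groups were stimulated Yap KO cells, stimulated WT cells, unstimulated Yap KO cells and unstimulated WT cells, with 1 library each. The titles of the stimulated samples carry the number 24 without a unit. The labels used here name neither the stimulus, nor the cell type, nor the driver or exons of the Yap deletion, nor the number or age of the animals. Yap KO stands for a knockout of Yap, the transcriptional coactivator of the Hippo pathway, whose gene is Yap1.

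Synthetases join each amino acid to its transfer RNA, the step that supplies ribosomes with charged transfer RNA. Mammalian cells keep a nuclear-encoded set for the cytosol and a largely separate nuclear-encoded set that is imported into mitochondria. Several cytosolic enzymes sit in the multisynthetase complex, which Aimp1, Aimp2 and Eef1e1 hold together. Lymphocytes that leave the resting state are known to raise protein synthesis, and many cytosolic synthetase genes are known targets of Atf4, the transcription factor of the amino acid response.

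Between 19935523 and 25419974 reads were assigned to genes in each library, and values below are CPM (reads of a gene per 1e6 reads in genes, after TMM scaling) unless another scale is named. Yap1 itself held 2 reads in stimulated Yap KO cells, 3 in stimulated WT cells, 0 in unstimulated Yap KO cells and 1 in unstimulated WT cells, so it could not check the genotype labels. The T-cell genes Cd3e and Cd8a were high in all 4 libraries and Cd4 had at most 3 reads. The 8 T-cell markers summed to 1771 CPM without TMM scaling in stimulated Yap KO cells and 1947 in stimulated WT cells, against 6493 in unstimulated Yap KO cells and 6115 in unstimulated WT cells. On the same scale the 6 B-cell markers summed to 28.7 and 16.9 in stimulated Yap KO and WT cells, against 127 and 101 in unstimulated Yap KO and WT cells. The 4 stromal and endothelial markers summed to 9.83 and 10.8 in stimulated Yap KO and WT cells, against 123 and 162 in unstimulated Yap KO and WT cells, nearly all of it Pecam1 (9.68 and 10.8 in stimulated Yap KO and WT cells, against 121 and 161 in unstimulated Yap KO and WT cells), with Cdh5 at 0 throughout. The 4 NK markers summed to 2.46 and 2.19 in stimulated Yap KO and WT cells, against 49.1 and 23.3 in unstimulated Yap KO and WT cells. The 6 myeloid markers gave 23.4 and 17.6 in stimulated Yap KO and WT cells, against 32.5 and 26.8 in unstimulated Yap KO and WT cells. The 4 plasma cell markers gave 164 and 229 in stimulated Yap KO and WT cells, against 84.4 and 91.2 in unstimulated Yap KO and WT cells. The higher sum in stimulated cells was Xbp1, at 157 and 224 in stimulated Yap KO and WT cells, against 51.8 and 51.0 in unstimulated Yap KO and WT cells. Jchain lay the other way, with 2 and 12 reads in stimulated Yap KO and WT cells, against 659 and 862 reads in unstimulated Yap KO and WT cells. The 4 neutrophil markers, Elane at 0 throughout, and the 4 erythroid markers each summed to at most 3.35. These sums differed between states and, by varying amounts, between genotypes, and their part in the results below was not tested. In bulk RNA, fewer cells of a type and less RNA per cell cannot be told apart.

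Relative to the reads of each library, messenger RNA of nearly every cytosolic synthetase was higher in stimulated cells. The mitochondrial set moved little and in both directions. Such relative values do not give the amount of RNA per cell. The test was the quasi-likelihood test of edgeR in an additive model of genotype plus state, fitted to all 15394 tested genes with Benjamini-Hochberg adjustment and a threshold of 0.05. This fit takes the Yap KO and WT libraries as repeats of the same stimulation and has 1 residual degree of freedom, so much of its spread is borrowed from other genes. By it, 28 of the 40 genes rose in stimulated cells, 2 fell and 10 were not called, against a background in which 67.4% of all tested genes were called in either direction, 33.3% higher and 34.1% lower. Among the 21 cytosolic and dual enzymes, 20 rose and none fell. Among the 16 mitochondrial enzymes other than Lars2, 6 rose, 2 fell and 8 were not called, which is near the background for higher calls. Both scaffold genes rose.

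The median log2 ratio of stimulated to unstimulated cells over the 21 cytosolic and dual genes was 1.53 in Yap KO cells and 1.85 in WT cells. Over the 16 mitochondrial genes it was 0.13 in Yap KO cells and 0.21 in WT cells, and over all tested genes it was -0.05 in Yap KO cells and -0.02 in WT cells. At least 2-fold higher values in both genotypes were found for 15 of the 21 cytosolic and dual genes and for 3 of the 16 mitochondrial genes, against 19.4% of all tested genes.

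**Figure D1:**
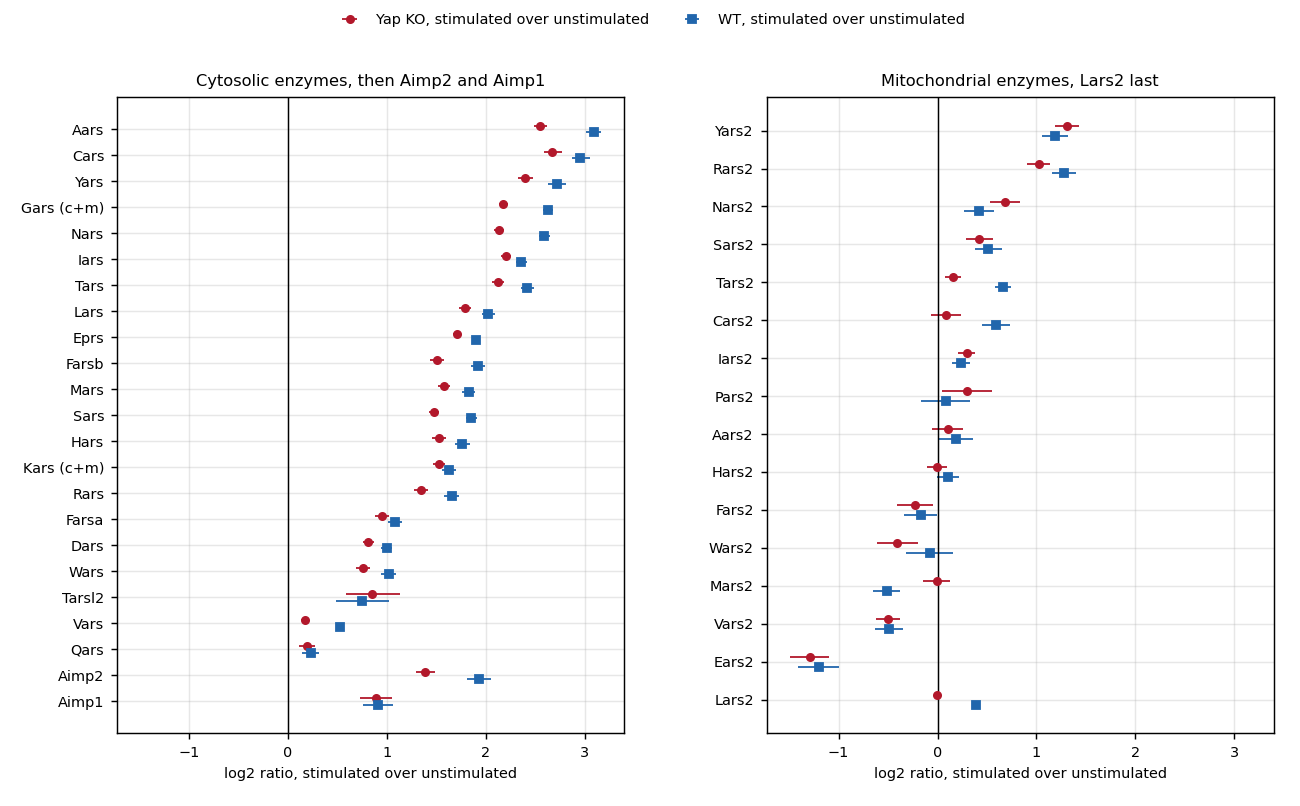
Log2 ratio of stimulated to unstimulated cells for 39 of the 40 genes (horizontal axis), with circles for Yap KO cells, squares for WT cells and 95% counting intervals as bars; the left panel holds the cytosolic enzymes, the 2 enzymes of both places (c+m) and the scaffolds, the right panel the mitochondrial enzymes. The cytosolic genes lie to the right of 0 with medians of 1.53 in Yap KO cells and 1.85 in WT cells, and most mitochondrial genes lie around 0, with Ears2 lowest.

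Aars, the alanyl-tRNA synthetase (chr8:111033144-111057664, plus strand, GRCm38), had 509 CPM in stimulated Yap KO cells and 573 CPM in stimulated WT cells, against 87.0 CPM in unstimulated Yap KO cells and 67.3 CPM in unstimulated WT cells. Both stimulated libraries stood far above both unstimulated ones, by 5.84-fold in Yap KO cells and 8.50-fold in WT cells. Its additive log2 fold change was 2.82 ± 0.16 (SE, edgeR adjusted p = 6.45e-07). Of its 31-base words, 14.4% also occur in another gene, mostly Exosc6.

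Cars, the cysteinyl-tRNA synthetase (chr7:143557230-143600090, minus strand), had 295 CPM in stimulated Yap KO cells and 367 CPM in stimulated WT cells, against 46.2 CPM in unstimulated Yap KO cells and 47.2 CPM in unstimulated WT cells. The stimulated libraries were higher by 6.38-fold in Yap KO cells and 7.76-fold in WT cells, with an additive log2 fold change of 2.82 ± 0.14 (SE, edgeR adjusted p = 2.64e-07). Yars, the tyrosyl-tRNA synthetase (chr4:129189760-129219607, plus strand), had 346 CPM in stimulated Yap KO cells and 358 CPM in stimulated WT cells, against 65.4 CPM in unstimulated Yap KO cells and 54.4 CPM in unstimulated WT cells. Its stimulated values were higher by 5.28-fold in Yap KO cells and 6.57-fold in WT cells (additive log2 fold change 2.56 ± 0.14, SE, edgeR adjusted p = 4.66e-07). In both genes the stimulated and unstimulated libraries were far apart, and the unstimulated libraries differed little between genotypes for Cars.

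Gars, the glycyl-tRNA synthetase of cytosol and mitochondria (chr6:55038007-55079500, plus strand), had 788 CPM in stimulated Yap KO cells and 854 CPM in stimulated WT cells, against 174 CPM in unstimulated Yap KO cells and 138 CPM in unstimulated WT cells. Averaged over the libraries, its level per kilobase of exon was the highest of any member but Lars2. The stimulated libraries were higher by 4.53-fold in Yap KO cells and 6.17-fold in WT cells (additive log2 fold change 2.40 ± 0.15, SE, edgeR adjusted p = 1.14e-06). Nars, the asparaginyl-tRNA synthetase (chromosome 18), had 743 CPM in stimulated Yap KO cells and 917 CPM in stimulated WT cells, against 169 CPM in unstimulated Yap KO cells and 152 CPM in unstimulated WT cells. Its stimulated values were higher by 4.39-fold in Yap KO cells and 6.03-fold in WT cells (additive log2 fold change 2.36 ± 0.15, SE, edgeR adjusted p = 1.27e-06). Iars, the isoleucyl-tRNA synthetase (chr13:49682100-49734267, plus strand), had 760.1 CPM in stimulated Yap KO cells and 776 CPM in stimulated WT cells, against 165 CPM in unstimulated Yap KO cells and 151 CPM in unstimulated WT cells. Its stimulated values were higher by 4.60-fold in Yap KO cells and 5.13-fold in WT cells (additive log2 fold change 2.28 ± 0.13, SE, edgeR adjusted p = 6.44e-07), and 14.7% of its 31-base words also occur in another gene, mostly Gm4849. For all of these genes both stimulated libraries were above both unstimulated ones.

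The remaining cytosolic and dual enzymes that rose formed a graded series by additive log2 fold change. Tars, Lars and Eprs, the enzymes for threonine, leucine and for glutamate with proline, had 2.27, 1.91 and 1.80. Farsb, Mars, Sars, Hars, Kars and Rars followed, with 1.71 for Farsb and 1.58 for Kars. Farsa, Dars, Wars and Tarsl2 had 0.80 to 1.02. Farsa and Farsb encode the alpha and beta subunits of 1 enzyme, phenylalanyl-tRNA synthetase, and their changes of 1.02 and 1.71 were not alike in size. Tarsl2, another threonyl-tRNA synthetase gene, was the lowest member per kilobase, and its reads equalled 2.74% and 2.71% of those of Tars in stimulated Yap KO and WT cells, against 6.57% and 8.62% in unstimulated Yap KO and WT cells.

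At the other end of the cytosolic set were Vars and Qars. Vars, the valyl-tRNA synthetase (chr17:35000987-35016322, plus strand), had 567 CPM in stimulated Yap KO cells and 570.0 CPM in stimulated WT cells, against 504 CPM in unstimulated Yap KO cells and 397 CPM in unstimulated WT cells. Per kilobase of exon it had the highest unstimulated level of the cytosolic set, at an RPKM of 89.8 in Yap KO cells and 70.8 in WT cells. The additive log2 fold change of 0.35 ± 0.13 (SE, edgeR adjusted p = 0.0453) passed the test only narrowly. The call was lost in 5 of 8 alternative settings, with an edgeR adjusted p of up to 0.113. Qars, the glutaminyl-tRNA synthetase (chr9:108507706-108515941, plus strand), had 110.2 CPM in stimulated Yap KO cells and 103 CPM in stimulated WT cells, against 96.6 CPM in unstimulated Yap KO cells and 88.2 CPM in unstimulated WT cells. The 4 values lay close together, and Qars was the 1 cytosolic gene not called, with an additive log2 fold change of 0.21 ± 0.12 (SE, edgeR adjusted p = 0.154).

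**Figure D2:**
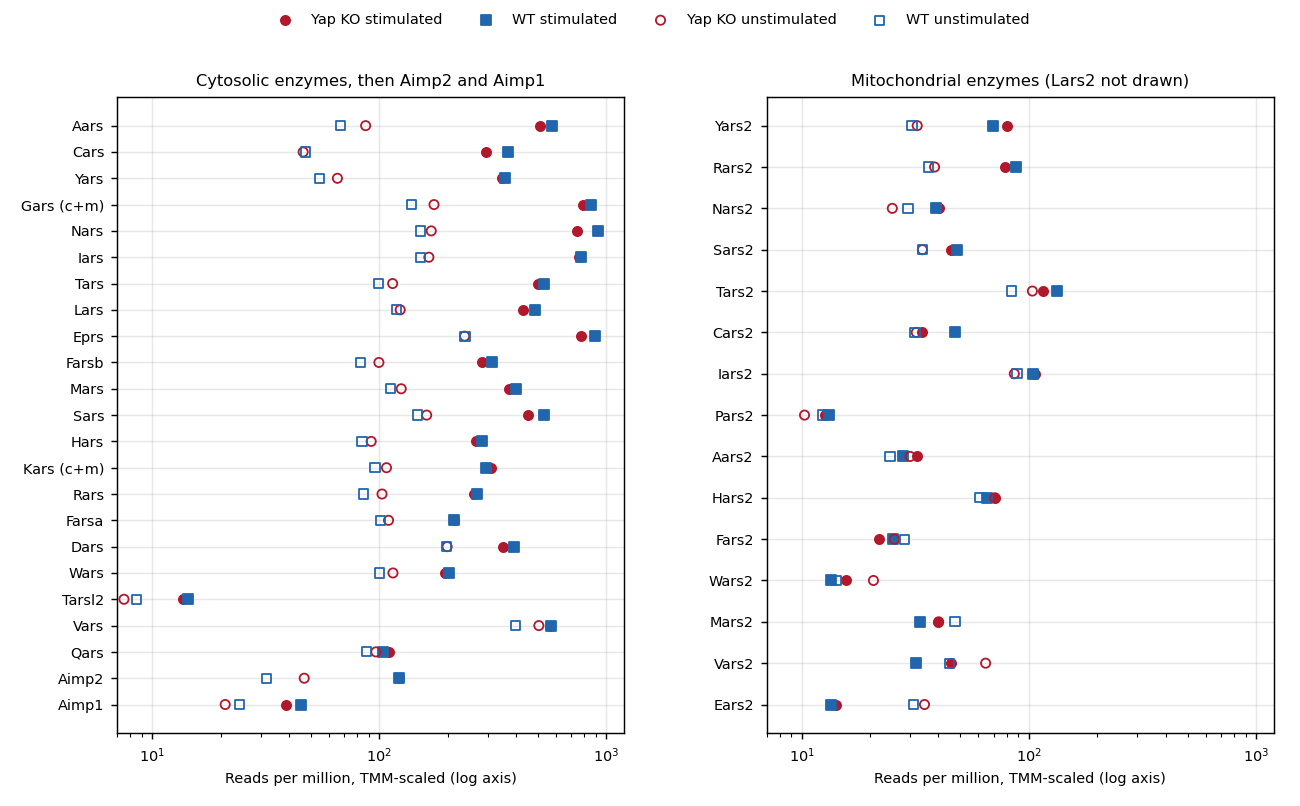
Level of 38 of the 40 genes, Lars2 left out for scale, in each library, in CPM after TMM scaling on a log axis, with 1 point per library (filled when stimulated, circles for Yap KO, squares for WT) and the cytosolic enzymes and scaffolds left of the mitochondrial enzymes. The stimulated points stand apart from the unstimulated ones for most cytosolic genes, from Aars (509 CPM in stimulated Yap KO and 573 CPM in stimulated WT cells, against 87.0 CPM in unstimulated Yap KO and 67.3 CPM in unstimulated WT cells) down to Qars, whose 4 points nearly meet.

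Grouped by structure, the enzymes showed no simple division. Of the cytosolic and dual enzymes, 8 of 9 class I and 11 of 11 class II enzymes rose, with Eprs, which holds a catalytic domain of each class, counted in neither. Of the 10 members of the multisynthetase complex listed here, 9 rose, and their median log2 ratio was 1.46 in Yap KO cells and 1.74 in WT cells. The 13 cytosolic and dual enzymes outside the complex all rose, with medians of 1.53 in Yap KO cells and 1.92 in WT cells. The difference between these groups was not tested.

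The scaffolds Aimp2 and Aimp1 rose by different amounts. Aimp2 (chr5:143902704-143909847, minus strand) had 122 CPM in stimulated Yap KO cells and 122 CPM in stimulated WT cells, against 46.7 CPM in unstimulated Yap KO cells and 32.0 CPM in unstimulated WT cells. The genotypes met in stimulated cells and were apart in unstimulated cells, and the additive log2 fold change was 1.66 ± 0.16 (SE, edgeR adjusted p = 1.62e-05). Aimp1 (chr3:132660499-132684370, minus strand) had 38.8 CPM in stimulated Yap KO cells and 45.3 CPM in stimulated WT cells, against 21.0 CPM in unstimulated Yap KO cells and 24.2 CPM in unstimulated WT cells, an additive log2 fold change of 0.90 ± 0.15 (SE, edgeR adjusted p = 5.74e-04). Of the exon bases of Aimp2, 29.4% lie opposite Eif2ak1. The strand setting of the counts was not stated, so how reads there were assigned is not known.

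Promoter sequences were read for the members because the cytosolic genes moved together. RefSeq promoter windows (GRCm38.p6, 250 bases before to 50 after the RefSeq gene start) were in the table for 30 of the 40 members, 14 of them cytosolic or dual and 14 mitochondrial. RefSeq and GENCODE starts can differ. For Aars and Qars the GENCODE starts, 111033144 and 108507706, lie upstream of the whole window. Sequence before those starts was not searched. The composite element bound by Atf4 with C/EBP partners has the core TGATGNAA, searched here on both strands. It was present in 5 of the 14 cytosolic or dual windows, those of Aars, Gars, Iars, Tars and Yars, and in 0 of the 14 mitochondrial windows. Of all 27025 genes in the table, 4.51% held it. The exact form TGATGCAA, which is contained in the first, was present in Aars, Iars, Tars and Yars and in 1.03% of all genes. The E-box CACGTG, a palindrome that Myc and related factors can bind, was present in Aars, Iars, Tars, Farsb and Ears2 and in 8.09% of all genes.

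The 5 windows are shown because they hold the core, and the Qars window is shown as that of the cytosolic gene not called. Each reads 5′ to 3′ along the gene. Capitals mark the core on either strand and the E-box; the Qars window holds neither.
Aars, chr8:111033592-111033891, plus strand: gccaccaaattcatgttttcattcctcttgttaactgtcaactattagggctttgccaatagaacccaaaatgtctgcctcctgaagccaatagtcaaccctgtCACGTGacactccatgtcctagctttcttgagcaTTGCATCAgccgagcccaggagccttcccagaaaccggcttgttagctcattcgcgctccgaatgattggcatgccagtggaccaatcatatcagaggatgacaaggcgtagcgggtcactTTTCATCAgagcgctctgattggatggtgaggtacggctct
Gars, chr6:55037751-55038050, plus strand: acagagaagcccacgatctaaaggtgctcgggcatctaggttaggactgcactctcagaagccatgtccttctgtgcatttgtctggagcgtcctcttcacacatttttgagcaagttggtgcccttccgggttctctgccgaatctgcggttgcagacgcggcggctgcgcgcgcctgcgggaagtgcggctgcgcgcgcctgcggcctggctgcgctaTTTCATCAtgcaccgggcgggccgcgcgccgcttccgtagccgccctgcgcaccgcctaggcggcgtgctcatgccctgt
Iars, chr13:49681880-49682179, plus strand: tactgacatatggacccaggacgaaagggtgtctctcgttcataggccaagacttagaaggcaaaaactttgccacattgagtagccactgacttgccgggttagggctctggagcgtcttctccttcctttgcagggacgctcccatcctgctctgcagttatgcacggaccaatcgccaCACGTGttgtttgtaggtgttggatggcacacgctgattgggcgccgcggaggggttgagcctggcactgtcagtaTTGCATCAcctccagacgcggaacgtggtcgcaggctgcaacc
Tars, chr15:11399609-11399908, minus strand: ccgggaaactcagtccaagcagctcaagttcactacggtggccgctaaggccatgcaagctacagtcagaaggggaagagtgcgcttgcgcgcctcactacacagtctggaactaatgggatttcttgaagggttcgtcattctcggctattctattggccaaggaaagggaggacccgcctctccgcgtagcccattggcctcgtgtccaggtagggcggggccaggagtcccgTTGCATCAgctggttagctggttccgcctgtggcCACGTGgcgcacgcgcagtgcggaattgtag
Yars, chr4:129189653-129189952, plus strand: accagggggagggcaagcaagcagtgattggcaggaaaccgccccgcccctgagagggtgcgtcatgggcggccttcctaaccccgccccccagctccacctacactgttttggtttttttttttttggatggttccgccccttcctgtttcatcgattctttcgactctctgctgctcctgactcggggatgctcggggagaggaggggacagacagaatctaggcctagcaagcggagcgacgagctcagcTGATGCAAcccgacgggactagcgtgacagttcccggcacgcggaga
Qars, chr9:108507755-108508054, plus strand: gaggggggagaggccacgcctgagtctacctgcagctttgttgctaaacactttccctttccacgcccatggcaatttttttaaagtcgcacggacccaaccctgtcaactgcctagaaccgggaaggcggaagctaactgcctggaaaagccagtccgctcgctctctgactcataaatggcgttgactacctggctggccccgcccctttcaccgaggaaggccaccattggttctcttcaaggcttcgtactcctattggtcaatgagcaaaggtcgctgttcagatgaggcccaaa

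In Aars the core stands 112 bases before the RefSeq start and again 9 bases after it. In Gars and Tars it stands 30 and 15 bases before the start, and in Iars and Yars 7 and 3 bases after it. The additive log2 fold changes with stimulation were 2.27 to 2.82 for the 5 genes with the core and 0.21 to 1.80 for the 9 cytosolic or dual genes whose window did not hold it. The 7 genes without a window in the table spanned 0.35 to 2.82. These matches are letters in a window and describe neither binding nor a cause.

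Yars2 and Rars2 were among the 6 mitochondrial enzymes that rose. Yars2, for tyrosine (chr16:16302965-16309640, plus strand), had 79.9 CPM in stimulated Yap KO cells and 69.5 CPM in stimulated WT cells, against 32.3 CPM in unstimulated Yap KO cells and 30.6 CPM in unstimulated WT cells. Its stimulated values were higher by 2.47-fold in Yap KO cells and 2.27-fold in WT cells (additive log2 fold change 1.25 ± 0.14, SE, edgeR adjusted p = 3.94e-05).

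Rars2, for arginine (chr4:34614957-34660167, plus strand), had 78.2 CPM in stimulated Yap KO cells and 87.9 CPM in stimulated WT cells, against 38.5 CPM in unstimulated Yap KO cells and 36.3 CPM in unstimulated WT cells, an additive log2 fold change of 1.15 ± 0.14 (SE, edgeR adjusted p = 7.28e-05). For both genes the stimulated libraries stood clearly above the unstimulated ones. Nars2, Sars2 and Tars2 rose by smaller amounts, with additive log2 fold changes of 0.55, 0.47 and 0.41 and edgeR adjusted p values of 0.0109, 0.0158 and 0.0334. The Tars2 call was lost in 5 of 8 alternative settings (edgeR adjusted p up to 0.104) and the Sars2 call with DESeq2 (adjusted p = 0.0509). In Tars2 the stimulated values were 116 CPM in Yap KO cells and 133 CPM in WT cells, against 104 and 84.0 CPM in unstimulated Yap KO and WT cells, so the Yap KO libraries were much closer together than the WT ones.

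Ears2 and Vars2 went the other way. Ears2, the mitochondrial glutamyl-tRNA synthetase (chr7:122037213-122067263, minus strand), had 273 reads in stimulated Yap KO cells and 275 reads in stimulated WT cells, against 901 reads in unstimulated Yap KO cells and 709 reads in unstimulated WT cells. After scaling, both stimulated libraries were below both unstimulated ones by more than a factor of 2 (additive log2 fold change -1.25 ± 0.17, SE, edgeR adjusted p = 1.43e-04). Vars2, for valine (chr17:35655634-35667592, minus strand), had 45.6 CPM in stimulated Yap KO cells and 31.8 CPM in stimulated WT cells, against 64.5 CPM in unstimulated Yap KO cells and 44.7 CPM in unstimulated WT cells. Within each genotype the stimulated value was lower, while stimulated Yap KO and unstimulated WT cells had nearly the same level (additive log2 fold change -0.50 ± 0.14, SE, edgeR adjusted p = 0.0100). With genotype left out of the model this call was lost (adjusted p = 0.116).

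The 8 mitochondrial enzymes not called had additive log2 fold changes of -0.26 to 0.34. Hars2, for histidine (chromosome 18), had 70.7 CPM in stimulated Yap KO cells and 65.6 CPM in stimulated WT cells, against 70.9 CPM in unstimulated Yap KO cells and 61.0 CPM in unstimulated WT cells, and Aars2, for alanine (chr17:45506841-45520843, plus strand), had 32.2 CPM in stimulated Yap KO cells and 27.9 CPM in stimulated WT cells, against 30.0 CPM in unstimulated Yap KO cells and 24.5 CPM in unstimulated WT cells. In each of these genes the 4 values lay close together, with additive log2 fold changes of 0.05 ± 0.13 and 0.14 ± 0.15 (SE) and edgeR adjusted p values of 0.742 and 0.429. Hars2 lies next to Hars on the opposite strand, and their exons overlap over 195 bases. Hars, its cytosolic counterpart, had 266 CPM in stimulated Yap KO cells and 284 CPM in stimulated WT cells, against 92.1 CPM in unstimulated Yap KO cells and 83.8 CPM in unstimulated WT cells, so the neighbours differed in their change, at 1.65 ± 0.13 (SE) on the additive log2 scale for Hars.

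**Figure D3:**
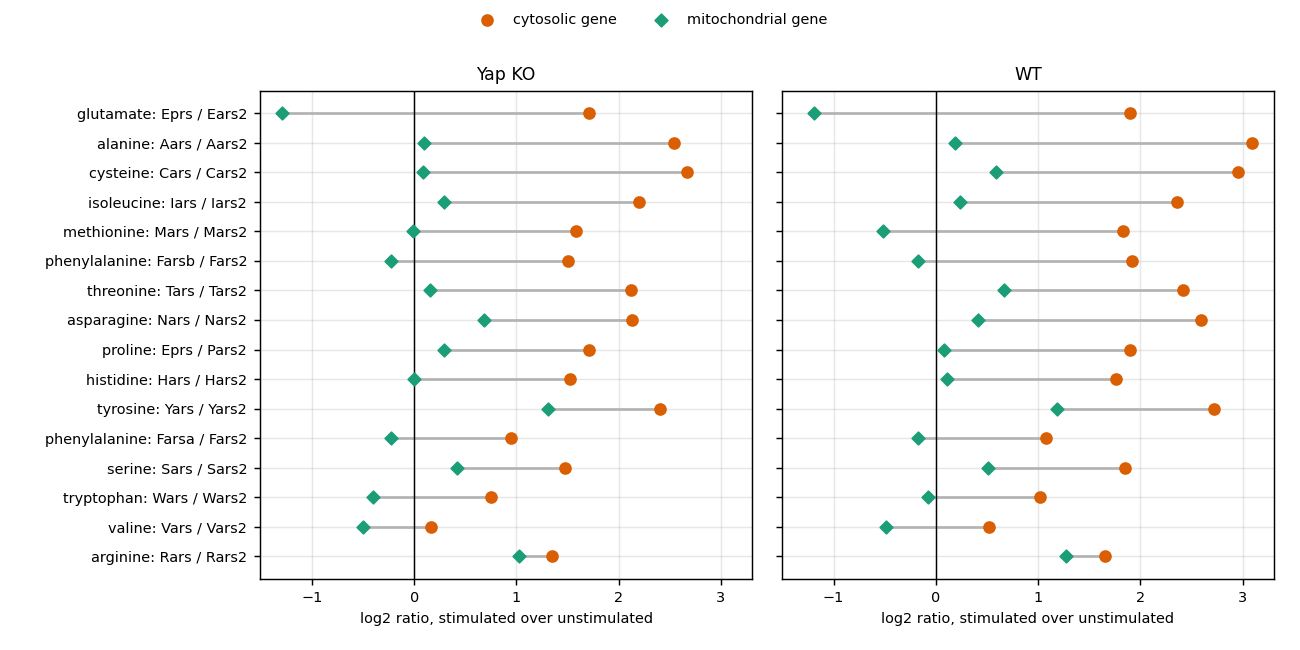
Log2 ratio of stimulated to unstimulated cells for the cytosolic and the mitochondrial enzyme of an amino acid, joined by a line, with Yap KO cells in the left panel and WT cells in the right. In each of the 16 pairs drawn, of 17, the cytosolic point lies to the right of the mitochondrial one in both genotypes.

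Set side by side by amino acid, with leucine apart, the cytosolic gene had the larger stimulation ratio in 16 of 17 pairs in Yap KO cells and in 16 of 17 pairs in WT cells. The median difference of log2 ratios was 1.45 in Yap KO cells and 1.76 in WT cells. The widest gap was in glutamate, at 3.00 in Yap KO cells and 3.09 in WT cells between Eprs and Ears2. The narrowest of these 16 was in arginine, at 0.32 in Yap KO cells and 0.38 in WT cells between Rars and Rars2. The pairs include Eprs for both glutamate and proline, and Fars2 for both phenylalanine subunits, so they are not independent.

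The make-up of the synthetase reads differed accordingly. Cytosolic and dual genes took 91.2% of the synthetase reads without Lars2 and the scaffolds in stimulated Yap KO cells (exact binomial 95% interval 91.0 to 91.3) and 91.8% in stimulated WT cells (91.7 to 91.9). They took 81.2% in unstimulated Yap KO cells (80.9 to 81.4) and 80.5% in unstimulated WT cells (80.2 to 80.8). These intervals, like all intervals given for single libraries, cover counting error only. On the RPKM scale (CPM per kilobase of exon), the summed cytosolic level was 10.6 and 11.5 times the mitochondrial one in stimulated Yap KO and WT cells, against 4.82 and 4.61 times in unstimulated Yap KO and WT cells. By pair on that scale, Yars stood at 2.29 and 2.73 times Yars2 in stimulated Yap KO and WT cells, against 1.07 and 0.942 times in unstimulated Yap KO and WT cells.

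Genes around the synthetases moved in part with them. Of 13 genes for proofreading, export and related steps, 8 rose, 0 fell and 5 were not called. Ppa1, a cytosolic pyrophosphatase that removes the pyrophosphate released on charging, had an additive log2 fold change of 2.81, and Eef1e1, the third scaffold of the complex, 2.54. Of 7 cytosolic elongation genes, 5 rose, among them Eif5a (2.03) and Eef1d (1.69), while Eef1a1, the factor that carries charged transfer RNA to the ribosome, fell by 0.84. Another 12 genes cover mitochondrial initiation, elongation and release, and the formylation and amidation of transfer RNA. Of these, 9 rose, among them the elongation factors Tsfm (2.01) and Gfm1 (1.68), and 0 fell. These additive values come from the same edgeR fit, whose background is 33.3% higher and 34.1% lower.

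All 16 genes of the amino acid response list, which was chosen with earlier results of these data known, rose, against 33.3% of all tested genes. Chac1, a glutathione-degrading enzyme, had 538 reads in stimulated Yap KO cells and 543 in stimulated WT cells, against 0 in each unstimulated library. Nupr1, a stress-response coregulator, had 105 reads in stimulated Yap KO cells and 238 in stimulated WT cells, against 0 in each unstimulated library. The median log2 ratio over the 16 genes was 2.50 in Yap KO cells and 2.71 in WT cells. Chac1 and Nupr1 lie above these medians also at the bound given by 3 reads per library, so setting them to it leaves the medians where they are. Atf4 itself had 447 CPM in stimulated Yap KO cells and 403 CPM in stimulated WT cells, against 141 and 152 CPM in unstimulated Yap KO and WT cells (additive log2 fold change 1.54).

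Between genotypes, no synthetase gene was called. By edgeR's quasi-likelihood test of the additive genotype term, 0 of the 40 genes passed, against 1.4% of all tested genes (0.838% higher and 0.559% lower in Yap KO cells). At that share few calls would be expected among 40 genes. The term averages the 2 states, so opposite genotype ratios, found in 12 members with counting intervals away from 0, largely cancel in it. At an unadjusted p under 0.05 there was 1 of 40, Vars2, against 11.6% of all tested genes. DESeq2 with the same design called 1 of 40, Lars2. No member differed 2-fold between genotypes in either state. Counting intervals lay above 0 in both states for 4 members, Vars2, Kars, Qars and Aars2, against 10.8% of all tested genes, and below 0 in both for 2, Lars2 and Aimp1, against 7.5%. This term compares 2 cell sources with 1 library per state, and genotype and source cannot be told apart.

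Vars2 had the lowest unadjusted p of the members. It was 1.43 times as high in stimulated Yap KO cells as in stimulated WT cells and 1.44 times as high in unstimulated Yap KO cells as in unstimulated WT cells, from the values given above. The additive genotype log2 fold change was 0.53 ± 0.14 (SE, edgeR unadjusted p = 0.00396, adjusted p = 0.129). Its exons lie opposite Gm20483 for 465 bases. Wars2, the mitochondrial tryptophanyl-tRNA synthetase (chr3:99141068-99239186, plus strand), had 15.6 CPM in stimulated Yap KO cells and 13.5 CPM in stimulated WT cells, against 20.7 CPM in unstimulated Yap KO cells and 14.2 CPM in unstimulated WT cells. Unstimulated Yap KO cells stood apart from the other 3 libraries, and the additive genotype log2 fold change was 0.38 ± 0.19 (SE, edgeR adjusted p = 0.496).

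The cytosolic set as a group shifted by small amounts and in opposite directions in the 2 states. In stimulated cells the median log2 ratio of Yap KO to WT over the 21 cytosolic and dual genes was -0.09, with 19 of 21 below 0 and 14 with a counting interval below 0, against 23.1% of all tested genes. In unstimulated cells it was 0.15, with 18 of 21 above 0 and 16 with a counting interval above 0, against 29.1% of all tested genes. In 11 members, 10 of them cytosolic or dual, the interval was below 0 in stimulated and above 0 in unstimulated cells, against 5.39% of all tested genes. Over all tested genes these medians were -0.000735 in stimulated and 0.03 in unstimulated cells. Without replicate libraries, the spread that such ratios would have between animals is not known. Counting intervals also narrow as reads rise. The filter on all tested genes used a minimum count of 10, while no member had under 195 reads. The shares of all tested genes are therefore not matched to the members for read number.

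**Figure D4:**
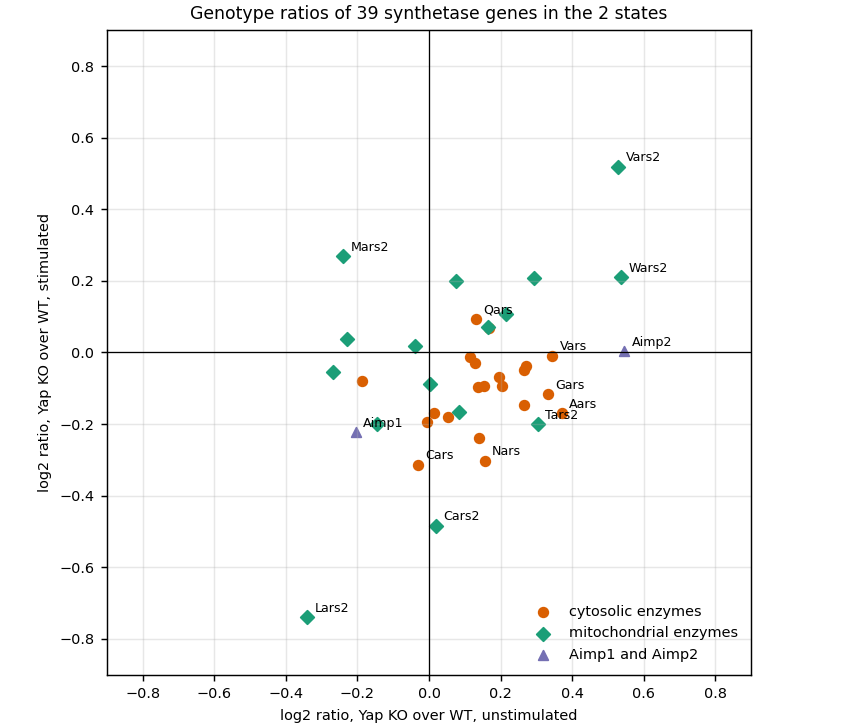
Log2 ratio of Yap KO to WT for 39 of the 40 genes, in stimulated cells on the vertical axis and in unstimulated cells on the horizontal axis, with 1 point per gene. Cytosolic genes lie mostly below 0 in stimulated cells (median -0.09) and right of 0 in unstimulated cells (median 0.15), while Vars2 is above 0 and Lars2 below 0 in both.

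The stimulation ratio was smaller in Yap KO than in WT cells for 20 of the 21 cytosolic and dual genes and for 34 of the 40 members, against 54.7% of all tested genes. On the log2 scale this difference equals the stimulated genotype ratio minus the unstimulated one. It therefore restates the genotype ratios above and is not a separate observation. The counting interval of this difference was below 0 for 19 of the 21, against 23.3% of all tested genes. That share too is not matched for read number. The median difference of log2 ratios over the 21 was -0.26, and over all tested genes it was -0.05. It was -0.54 for Aars (counting interval -0.64 to -0.44), -0.45 for Gars and -0.28 for Cars. Tarsl2 was the 1 gene of the 21 with a larger ratio in Yap KO cells, and Mars2 and Nars2 were the members whose counting interval was above 0, against 17.2% of all tested genes. A test of this difference was not possible with 1 library per genotype and state.

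Lars2, the mitochondrial leucyl-tRNA synthetase (chr9:123366927-123462666, plus strand), stood apart from the other members. It held 313035 reads in stimulated Yap KO cells and 552770 in stimulated WT cells, against 423160 in unstimulated Yap KO cells and 472239 in unstimulated WT cells. That was 1.57% and 2.64% of all reads in genes in stimulated Yap KO and WT cells, and 1.66% and 2.14% in unstimulated Yap KO and WT cells. It took 63.0% to 86.4% of the reads of all 40 genes in a library, against Gars, the next member per kilobase, at 15202 and 17436 reads in stimulated Yap KO and WT cells. With stimulation Lars2 was not called (additive log2 fold change 0.19 ± 0.24, SE, edgeR adjusted p = 0.502).

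Between genotypes Lars2 was lower in Yap KO cells in both states, at 0.60 times the WT level in stimulated cells and 0.79 times in unstimulated cells. The additive genotype log2 fold change was -0.54 ± 0.24 (SE), which edgeR did not call (adjusted p = 0.441). DESeq2 called it, at -0.55 (adjusted p = 0.0224). Reads of ribosomal RNA can collect on single genes, so genes on ribosomal or similar sequence were set beside it.

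Gm42418, which overlaps ribosomal RNA sequence, had 2821 CPM without TMM scaling in stimulated Yap KO cells and 1125 in stimulated WT cells, against 3441 in unstimulated Yap KO cells and 3638 in unstimulated WT cells. Gm26917 had 4000 and 3166 in stimulated Yap KO and WT cells, against 6520 and 5298 in unstimulated Yap KO and WT cells. On the same scale Lars2 had 15702 and 26352 in stimulated Yap KO and WT cells, against 16647 and 21380 in unstimulated Yap KO and WT cells. Lars2 was highest in stimulated WT cells, the library in which Gm42418, Gm26917, mt-Rnr1 and CT010467.1 were lowest. The mitochondrial ribosomal RNA gene mt-Rnr2 was instead lowest in stimulated Yap KO cells, where Lars2 was lowest too. It had 2115 CPM there and 2172 in stimulated WT cells. Exons of CT010467.1 lie opposite those of Gm42418, so it is not a separate observation. It was added to the list after its values were seen. On the list before that addition, 4 genes passed the filter, and 3 of these fell with stimulation by edgeR. Among them were Gm42418 (additive log2 fold change -0.91) and Gm26917 (-0.64), while AY036118 had 0 reads. Between the 9 Lars2 transcripts and the 8 transcripts of these and the mitochondrial ribosomal RNA genes, blastn found 0 alignments at an e-value limit of 0.001. Ribosomal sequence outside these transcripts was not compared, so this result cannot decide whether ribosomal reads fell on Lars2. The part of ribosomal reads in the Lars2 count was not tested further, since the reads themselves were not used here.

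**Figure D5:**
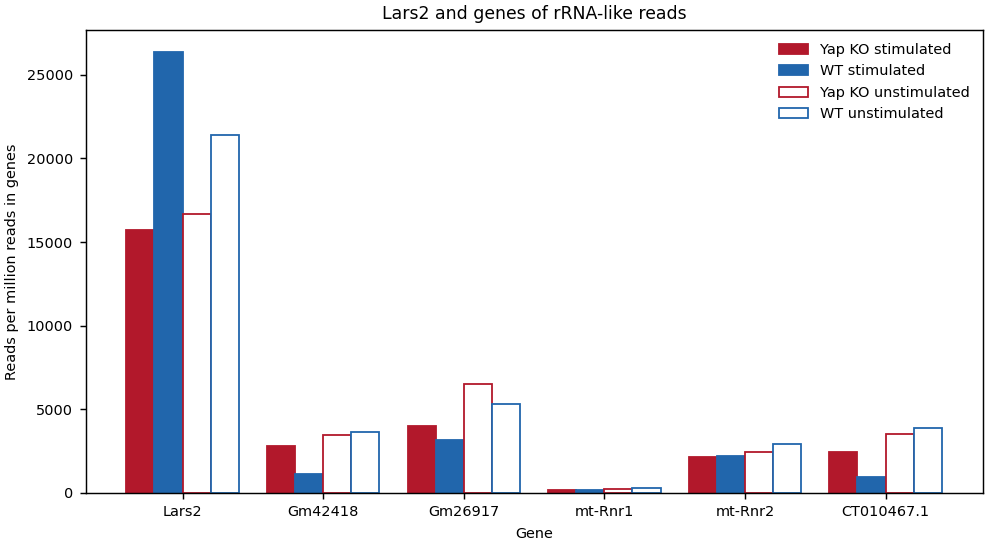
Levels, in CPM without TMM scaling, of Lars2 and of genes on ribosomal sequence, with 1 bar per library and the axis starting at 0. Lars2 has its highest bar in stimulated WT cells (26352) and its lowest in stimulated Yap KO cells (15702). Gm42418 has its lowest bar in stimulated WT cells (1125), and mt-Rnr2 in stimulated Yap KO cells (2115).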

How the data were processed

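Bulk RNA was sequenced in 4 libraries, 1 each of stimulated Yap KO, stimulated WT, unstimulated Yap KO and unstimulated WT cells. The authors deposited 1 table of raw counts per library, in whole numbers and not normalized, under Ensembl identifiers. The submitters' processing notes name the build mm9. Aligner, annotation and strand setting were not stated in those notes or in the labels. Names and positions come from GENCODE M21 on GRCm38, and promoters from RefSeq (GRCm38.p6). Many identifiers are later than mm9, a conflict that could not be settled.

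The htseq-type summary entries were left out, so that 35.6% to 39.7% of all entries were used. Genes passed filterByExpr by state with a minimum count of 10, which kept 15394. Libraries were scaled by TMM, and edgeR 4.0.16 (R 4.3.3) fitted genotype and state as additive terms with its quasi-likelihood test, Benjamini-Hochberg adjusted at 0.05 over all tested genes. The fit was also run on simulated counts with 200 changed genes. Of changes with a log2 size of 1, it recovered 83% for stimulation and 86% for genotype. The simulation gave all genes the same spread and no departure from the additive model. It therefore cannot show how the fit performs on these data. Ratios of 1 library to another used a prior count of 2, with exact conditional binomial 95% intervals. For the difference of stimulation ratios between genotypes, the 95% counting interval was a normal approximation. With 1 library per group nothing shows separate animals, so the p-values do not measure the spread between animals. They rest on the departure of these libraries from the additive model and on spread borrowed from other genes. That departure includes any difference between genotypes in the response to stimulation. Each SE given is the absolute log2 fold change divided by the square root of the F statistic. It restates the test and is not a separate measure of error.

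The members and lists were chosen with earlier results of these data known. Named genes were, by rule, the 6 cytosolic and 4 mitochondrial genes with the largest called changes, the 2 of each set with the smallest, those called against their set, the 3 with the largest genotype change, and Lars2, Aimp1 and Aimp2; of each other list, the 2 called genes with the largest change were named. Of the members, 1 is counted in every total but is not reported here by name. The other genes with values serve as context and were chosen after their values were seen. Alternatives were DESeq2 1.42.0, other scalings, filters and models; blastn 2.17.0 compared transcripts, and Python 3.11.15 with pandas 2.3.3 made the summaries.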

Additional observations from a re-analysis of the deposited data

Results flagged for a closer look

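In 12 genes the ratio of Yap KO to WT pointed in opposite directions in the 2 states, with both counting intervals away from 0. The difference between genotypes in the response to stimulation was not tested, since each genotype and state had 1 library. The values are the log2 stimulation ratio in Yap KO cells minus that in WT cells, a difference that follows from the ratios of Yap KO to WT. Among the cytosolic and dual genes it was -0.54 for Aars, -0.46 for Nars, -0.45 for Gars, -0.41 for Farsb and -0.38 for Sars. It was -0.32 for Yars, -0.30 for Tars, -0.26 for Wars, -0.25 for Mars and -0.23 for Hars. Among the mitochondrial genes it was -0.50 for Tars2 and 0.51 for Mars2. In 11 of the 12, all but Mars2, the Yap KO library was lower than WT in stimulated cells and higher in unstimulated cells. Of all tested genes, 5.39% showed this pattern and 3.49% the opposite one, that of Mars2. Neither share is matched for read number, on which counting intervals depend.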

How the results depend on the processing

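Leaving out the 16 members whose exons lie opposite another gene left 24, of which 16 rose and 0 fell; 13 of 15 cytosolic and dual genes rose, and of 8 mitochondrial genes 3 rose and 0 fell. Beside the genes left out, the calls of Vars (adjusted p = 0.0661) and Tars2 (0.0538) were lost there. With the tested term alone in the model, 1 member, mitochondrial, fell. DESeq2 called 1 member, Lars2, lower in Yap KO cells. With libraries scaled by total reads in genes, the median log2 stimulation ratio of the cytosolic and dual genes was 1.45 in Yap KO cells and 1.76 in WT cells; that scaling gives a median additive log2 change over all genes of -0.13, against -0.05 with TMM. With dual enzymes left out, the cytosolic share of reads was 90.0% and 90.7% in stimulated Yap KO and WT cells, against 79.6% and 79.0% in unstimulated Yap KO and WT cells; with Lars2 counted as mitochondrial it was 33.3% and 25.1%, against 14.6% and 10.8%. The genotype call of Lars2 held with DESeq2 only; among named genes the stimulation call of Vars was also lost with total-read scaling (adjusted p = 0.113), no filter (0.0932), the tested term alone (0.0828) and at least 100 reads in 2 libraries (0.0711), and that of Vars2 with the tested term alone (0.116). No direction of a called gene was turned by any of these settings, and their causes were not tested. Over all genes, genotype calls numbered 215, against 41 without a filter, 143 with total-read scaling and 0 with the tested term alone. With total-read scaling 4776 genes rose and 5546 fell, against 5124 and 5246 with TMM. The sum per kilobase with the longest coding transcript as length, chosen after seeing the data, gave a cytosolic level 10.3 and 10.8 times the mitochondrial one in stimulated Yap KO and WT cells, against 4.51 and 4.33 times in unstimulated ones. No paired analysis was possible because each group has 1 library, all numbered 1, so the number gives no block; the genotype term of the additive model already compares the states within each genotype, and the tested term alone leaves it out. With 1 library per group no replicate could be left out, and depth limits the weakest member to 195 reads.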
